A study of Gallus gallus with 60 samples.

Results

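Chicken miRNAs with names from gga-miR-1550 to gga-miR-1816 form a block of entries that carries the species prefix gga and no established family name. In these small RNA data of Tibetan chicken, every row named gga-miR-N with N in that range was taken, whatever its letter or arm, and the 3 rows of gga-miR-1635 and gga-miR-1744 were left out. This gave 215 members with 169 hairpin names, counted by leaving out the arm, of 1049 miRNAs listed in all and 709 known ones. The table of stages listed 209 of them and the table of tissues 150, with 144 in both. A miRNA is cut from a hairpin precursor whose 5p and 3p arms can both be loaded into an Argonaute protein, and the loaded strand represses mRNAs that match its seed. The numbers in miRBase follow the order of discovery, so that a run of neighbouring numbers does not make a family.

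The 60 samples came in groups of 3. Embryos were sampled at embryonic days 5 and 7 (E5, E7), and pectoral muscle at 13 stages: E9 and E12, which the study calls Pre_E, then E15, E18, E20 and day 1 after hatching (D1), called Lat_E, then days 36, 100 and 300 and years 3, 5, 8 and 12 (D36, D100, D300, Y3, Y5, Y8, Y12), called Bir_G. Brain, liver, ovary, spleen and kidney were taken at D300. The study drew these periods by clustering the same libraries, so that differences between periods are not independent of how the periods were chosen. The labels call E5 and E7 pectoral muscle whereas the methods describe the entire embryo, and both stages are treated here as whole embryos and kept out of the comparisons of muscle. The labels give 3 years for the group that the methods give as the 2nd year. No treatment was given, and the labels name the strain but neither sex nor individual birds.

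Levels are given in RPM, the reads of a miRNA scaled to the size of its library, which the authors call TPM. The values of 56 libraries were whole multiples of 1 read, with totals of 9347754 to 13060558 reads, and a floor of 3 reads stood at 0.230 to 0.321 RPM. The listed miRNAs added up to 374615 to 630236 RPM in whole embryos (median 502886) and 427686 to 625484 in Pre_E libraries (median 523737). Lat_E libraries held 294507 to 541736 (median 438834) and Bir_G libraries 657870 to 875328 (median 776228). By median, the share of each library taken by miRNAs was thus lowest in Lat_E, which overlapped Pre_E and the whole embryos. The lowest sums belonged to D1 replicates 1 and 3, at 294507 and 321660 RPM, while D1 replicate 2 held 528637. Among the tissues, the lowest was 1 kidney library at 410664 RPM. Marker miRNAs of muscle (gga-miR-133a-3p, gga-miR-1a-3p, gga-miR-206, gga-miR-499-5p), brain, liver, ovary and spleen were highest in the tissue of that name. The 2 matched kidney markers, gga-miR-194 and gga-miR-215-5p, were not: they summed to 9.85 to 35.1 RPM in kidney and 60.6 to 75.2 in liver. The sum of the 5 epithelial markers was highest of the tissues in kidney, at 3978 to 7807 RPM against at most 1420 in liver. Of these, gga-miR-200a-3p, gga-miR-200b-3p and gga-miR-429-3p were highest in kidney. By mean, gga-miR-205a (27.75 RPM in kidney, 155.5 in ovary) and gga-miR-205b (1.3 in kidney, 14.06 in brain) were not.

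Most members were rare. All 215 were listed above 0 in at least 1 sample, but 24 in exactly 1 sample and 6 in all 60. The mean of the highest group was under 1 RPM for 120 members, at least 1 RPM for 95, at least 10 RPM for 25 and at least 100 RPM for 4. In the table of stages, 39.2% of the members reached a group mean of 1 RPM, against 65.9% of the other known miRNAs, and in the table of tissues 32.7% against 64.3%. In muscle, 179 members were above 0 in at least 1 of 39 samples, 10 in all 39, and 58 reached a stage mean of 1 RPM. Embryos held 30 members that were at 0 in all 39 muscle samples, and muscle held 14 that were at 0 in all 6 embryos. The same counts were not made for the other known miRNAs, so these are not a trait of the members. They also rest on unequal numbers of samples and may include members seen in exactly 1 sample.

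In muscle, the number of members detected fell from E9 to D1 and stayed low from D36 on. E5 embryos held 129 ± 3.79 (SD, n = 3) and E7 embryos 135 ± 8.33. Muscle held 106 ± 9.00 members at E9 and 94.3 ± 5.77 at E12, E15 had 75.7 ± 17.4, E18 had 67.3 ± 4.73, E20 had 47.7 ± 11.7, and the lowest mean was 36.3 ± 8.96 at D1. From D36 to Y12 the stage means lay between 43.3 (D100) and 52.0 (D300). The D36 to Y12 samples ran from 38 to 55 members and the E9 and E12 samples from 91 to 115, so that these did not overlap, while E20 overlapped both D1 and the postnatal stages. The share of other known miRNAs above 0 moved less, with a median of 66.85% in Pre_E, 57.45% in Lat_E and 56.1% in Bir_G, whereas the share of members was 47.35%, 28.0% and 22.0%. Among the tissues, brain held 72, 85 and 90 members in its samples, more than any sample of liver, ovary, spleen or kidney, which held 37 to 64. The other known miRNAs were also above 0 most often in brain, with 75.5% to 80.2% there and 59.0% to 68.8% in the other 4 tissues.

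**Figure D1:**
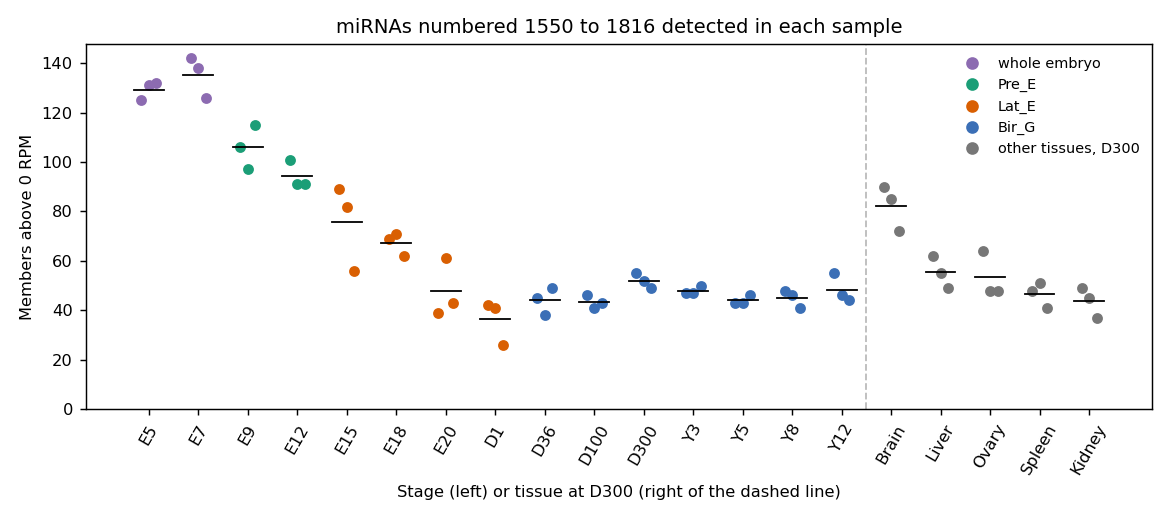
Number of members above 0 RPM in each of the 60 samples, by stage on the left and by tissue at D300 on the right of the dashed line. Points are samples and black lines are means of 3. Whole embryos have means of 129 at E5 and 135 at E7. In muscle the means go from 106 at E9 to 36.3 at D1 and stay between 43.3 and 52.0 from D36 on. Brain lies above the other tissues.

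Of 82 members reaching 1 RPM in the table of stages, 25 had their highest mean at E5 and 24 at E7. Their shares were 30.5% and 29.3%, against 22.3% and 20.5% of all 533 miRNAs reaching 1 RPM. For 10 of the 82, 12.2%, all 3 E5 samples lay above every sample of the other stages, against 6.94% of all 533. The E7 samples did so for 0 members, against 3.38% of all 533. Within muscle, 20 of 58 members peaked at E9 and 18 at E12, or 34.5% and 31.0%, against 33.5% and 19.4% of all 463 miRNAs. Peaks at E15 numbered 5, with 0 at E18 and E20, 1 at D1 and 0 at D36. Later, 4 members peaked at D100, 5 at D300, 1 each at Y3, Y5 and Y8, and 2 at Y12. All 3 peak samples stood above the rest of muscle for gga-miR-1662, both arms of gga-miR-1677 and both arms of gga-miR-1720 at E9, for gga-miR-1552-3p and gga-miR-1716 at E12, and for gga-miR-1729-3p at D100. These were 8.62%, 3.45% and 1.72% of the 58 members, against 12.7%, 1.94% and 0.216% of all 463 miRNAs. In the table of tissues, 49 members reached 1 RPM, and 23 of them peaked in brain, 10 in liver, 10 in spleen, 3 in ovary and 3 in kidney. In that order the shares were 46.9%, 20.4%, 20.4%, 6.12% and 6.12%, against 43.9%, 17.2%, 18.3%, 12.7% and 7.94% of all 378 miRNAs. All peak samples lay above all others for 17 of the 49 members in brain, 34.7%, for 4 in liver, 8.16%, and for 3 in spleen, 6.12%, against 29.9%, 10.1% and 8.47% of all 378 miRNAs. No ovary or kidney member did so, against 7.41% and 3.7% of all 378.

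**Figure D2:**
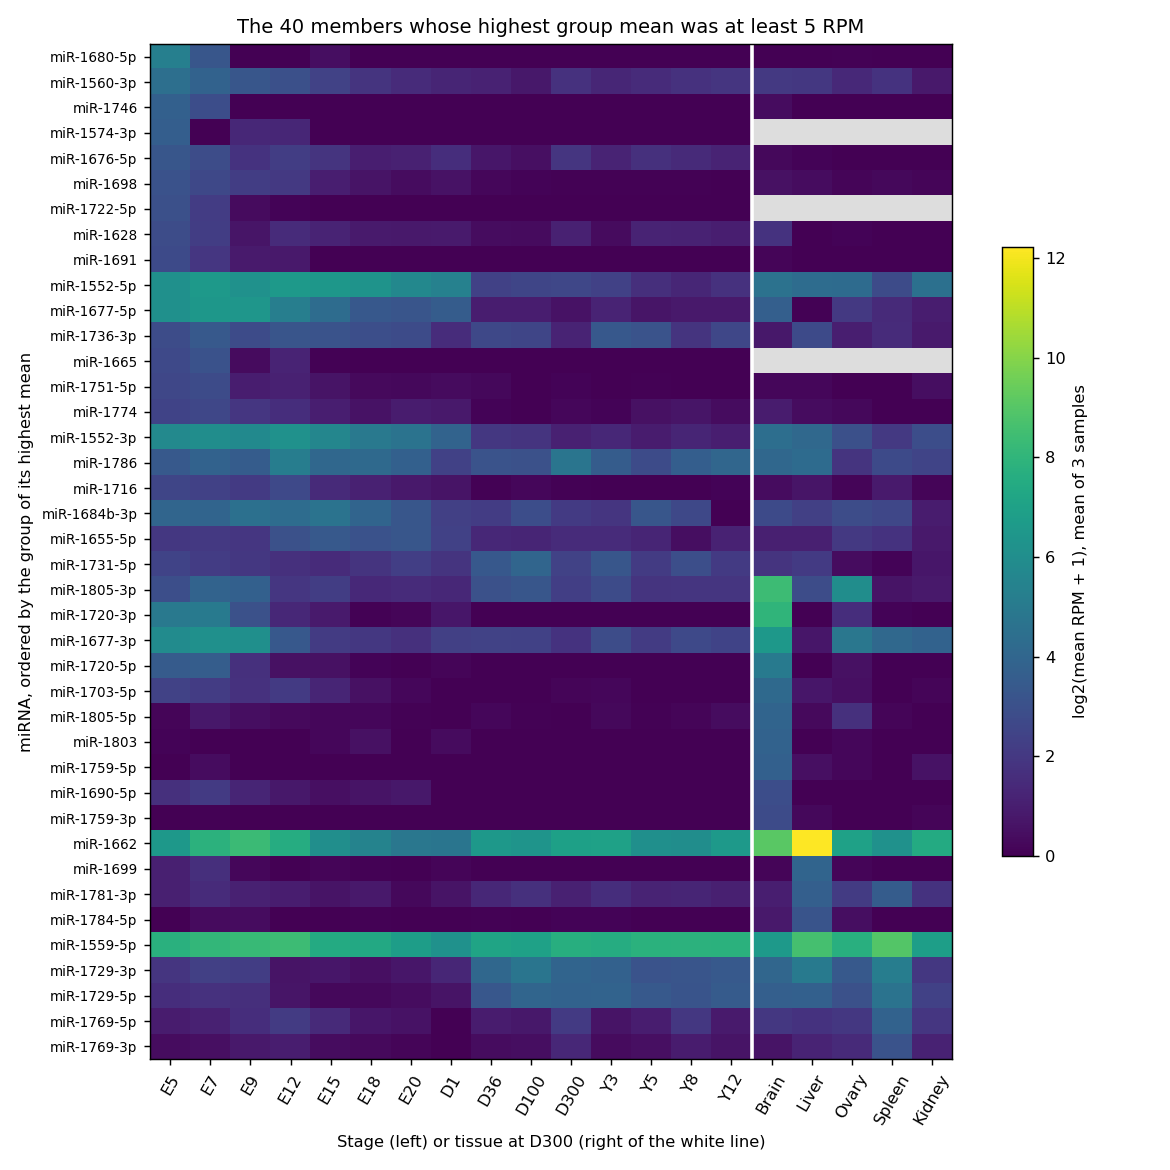
Mean level of the 40 members whose highest group mean was at least 5 RPM, as log2(mean RPM + 1), with groups in columns and members ordered by the group of their highest mean. Grey marks members not listed in the table of tissues; the brightest cell is gga-miR-1662 in liver at 4781 RPM, and gga-miR-1559-5p is the row that stays high in every group.

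A pair of members made up much of the summed level. In Bir_G, gga-miR-1559-5p and gga-miR-1662 together held a median of 75.9% of the RPM of all members (58.7% to 81.7% over 21 samples), and in Lat_E 47.0%. The hairpin of gga-miR-1559 lies within ITGAV, which encodes an integrin subunit, and that of gga-miR-1662 within VIPR1, which encodes a receptor for vasoactive intestinal peptide. These positions come from RefSeq (assembly GRCg7b), where 154 of the 169 hairpin names had a gene entry. Of those, 119, or 77.3%, lay within the span of a protein-coding gene. Each name was matched to 1 entry, also where a further copy exists, as for MIR1698-1 and MIR1698-2. The share over all 799 miRNA genes of that annotation was 73.3%. Hairpin and gene may lie on opposite strands, since strand was not compared.

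The level of gga-miR-1662 described a bowl in muscle. It stood at 297, 261 and 403 RPM in the E9 samples and 241, 128 and 200 at E12, fell to 25.8 ± 13.6 (SD, n = 3) at D1 and was back at 89.9 ± 2.71 at D36. Over the periods it was 128 to 403 RPM in Pre_E (median 251), 12.1 to 71.3 in Lat_E (median 37.8) and 45.003 to 148 in Bir_G (median 91.6). Pre_E did not overlap Lat_E, whereas Bir_G overlapped both. On the log2(RPM + 1) scale the change was −2.68 ± 0.33 (SE) from Pre_E to Lat_E (limma, adjusted p = 1.64e-05), 1.23 ± 0.20 from Lat_E to Bir_G (adjusted p = 2.34e-06) and −1.45 ± 0.22 from Pre_E to Bir_G (adjusted p = 1.58e-06). The last of these 3 calls was lost when each library was rescaled or centred on its median miRNA and with edgeR on the recovered reads.

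On the deposited scale, members called between the periods of muscle mostly fell. Centring each library on its median miRNA turned this for Pre_E to Lat_E, from 0 higher and 16 lower to 5 higher and 3 lower. Over all miRNAs the split went from 16 higher and 133 lower to 96 higher and 28 lower. A member was called when the adjusted p of limma on log2(RPM + 1), over all miRNAs tested, was at most 0.05 and the difference at least 1 on the log2 scale. From Pre_E to Lat_E, 16 of 172 members were called, all lower, against 19.6% of all 760 miRNAs tested, with 2.11% higher and 17.5% lower. Calls without overlap of the periods were 6, or 3.49% of the members tested, against 4.47% of all. From Lat_E to Bir_G, 12 of 148 were called, 5 higher and 7 lower, against 27.8% of 731, with 13.8% higher and 14% lower, and 7, or 4.73% of those tested, did not overlap, against 13.5%. From Pre_E to Bir_G, 28 of 168 were called, 4 higher and 24 lower, against 36.2% of 785 miRNAs with 11.5% higher and 24.7% lower, and 19, or 11.3%, did not overlap, against 23.7%. The members' shares, 9.30%, 8.11% and 16.7%, were below these backgrounds. Of the members reaching a period mean of 1 RPM, 35.6%, 41.4% and 57.1% were called in the 3 comparisons, against 42.4%, 65.4% and 73.9% of the other known miRNAs reaching it. Among all miRNAs reaching that mean, the median difference from Pre_E to Lat_E was −0.79 for 45 members and −0.79 for all 375, gga-miR-1786 being the middle one of both, and from Pre_E to Bir_G −0.98 for 49 members and −0.98 for all 406.

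The fall from Pre_E to Lat_E ran through the whole table. The median miRNA with a mean of at least 10 RPM dropped by 0.84 on the log2 scale between these periods, and 4 of the 16 calls were kept when each library was rescaled to its median miRNA: gga-miR-1662, both arms of gga-miR-1677 and gga-miR-1720-3p. Relative to the median shift, the difference was −1.84 for gga-miR-1662, −1.86 for gga-miR-1677-3p, −1.56 for gga-miR-1677-5p and −0.81 for gga-miR-1720-3p, and the last was not called without the E9 samples, on centring or with edgeR. With edgeR on recovered reads 6 of the 16 calls were kept, and gga-miR-1559-5p was also lost. With the mean of each stage as 1 value, 3 of the 16 were kept, gga-miR-1662, gga-miR-1724 and gga-miR-1730-3p. By contrast, all 12 calls from Lat_E to Bir_G were kept under rescaling, and 22 of 28 from Pre_E to Bir_G.

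Both arms of gga-miR-1552 were higher up to D1 than from D36 on. Its hairpin lies within MAP4K4, which encodes a kinase of the MAP kinase cascades. The 5p arm was 54.0 to 125 RPM in Pre_E (median 80.2), 27.9 to 127 in Lat_E (median 57.4) and 1.12 to 5.81 in Bir_G (median 3.57). The 3p arm was 47.9 to 88.9 RPM (median 61.5), 5.55 to 62.4 (median 25.9) and 0.527 to 3.88 (median 1.53). No Bir_G sample reached the lowest sample before D36 for either arm, while Pre_E and Lat_E overlapped. From Lat_E to Bir_G the 5p arm fell by 3.78 ± 0.22 on the log2 scale (limma, adjusted p = 1.02e-16) and the 3p arm by 3.37 ± 0.22 (adjusted p = 2.38e-15). For the 5p arm the step came between D1, at 40.8 ± 15.3 RPM, and D36, at 4.10 ± 0.61. The 3p arm was also called lower from Pre_E to Lat_E. That call was lost on centring, on rescaling, with edgeR, with stage means and without replicate 1.

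The arms of gga-miR-1677, whose hairpin lies within EPHA7, an ephrin receptor gene, took different courses. The 3p arm stood at 65.1, 54.1 and 78.6 RPM in the E9 samples and at 11.4, 8.24 and 8.28 at E12, then between 1.46 and 5.86 in Lat_E and 1.51 and 9.99 in Bir_G. The 5p arm ran from 29.0 to 120 RPM in Pre_E, then from 1.13 to 30.2 over Lat_E and from 0.238 to 1.74 over Bir_G. The 3p arm therefore dropped before E15 and stayed, whereas the 5p arm went on falling. The 3p change was −2.70 ± 0.43 from Pre_E to Lat_E (limma, adjusted p = 1.36e-04), and from Lat_E to Bir_G it was 0.34 ± 0.17, which was not called (adjusted p = 0.0942). For the 5p arm the changes were −2.41 ± 0.45 (adjusted p = 5.28e-04) and −2.53 ± 0.24 (adjusted p = 1.96e-11). With stage means as values neither arm was called from Pre_E to Lat_E.

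The abundant gga-miR-1559-5p was 222 to 475 RPM in Pre_E (median 300.5), 51.0 to 223 in Lat_E (median 134) and 104 to 304 in Bir_G (median 193). Its change from Pre_E to Lat_E was −1.33 ± 0.29 (limma, adjusted p = 0.00145), and −0.40 without a call after rescaling. gga-miR-1720-3p was 0.642 to 13.02 RPM in Pre_E (median 2.85), 0 to 1.63 in Lat_E and 0 in all 21 Bir_G samples. Against a floor of 3 reads, its Pre_E mean of 4.4 RPM was at least 14.3-fold higher than Bir_G. That mean holds the 13.02 RPM of E9 replicate 3, and the mean at E12 was 1.54 RPM. A member with its highest levels in late embryonic muscle was gga-miR-1655-5p, within the laminin gene LAMC1. It was 2.62 to 9.29 RPM in Pre_E (median 4.62), 2.31 to 12.1 in Lat_E (median 6.90) and 0 to 2.25 in Bir_G (median 1.55), with a change of −1.78 ± 0.19 from Lat_E to Bir_G (adjusted p = 3.03e-10). At lower levels, gga-miR-1698, whose matched copy lies within MTMR4, ran from 2.87 to 4.22 RPM in Pre_E and from 0 to 0.27 in Bir_G. This was a change of −2.03 ± 0.07 (limma, adjusted p = 1.6e-19).

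By median, the sums of brain and of epithelial markers were also lower after Pre_E. The summed level of 4 brain markers ran from 13990 to 24480 RPM in Pre_E, then from 3102 to 14730 over Lat_E and from 3553 to 8510 over Bir_G, and that of the epithelial markers 2060 to 61950, 144 to 17370 and 14.9 to 532. Most of the brain sum in muscle was gga-miR-128-3p, whose mean was 17860 RPM at E12 and 11270 at E15. The remaining brain markers had higher means at E15 than at E12. These were 7.644 against 2.589 RPM for gga-miR-124a-3p, 243.7 against 107.6 for gga-miR-9-5p and 33.91 against 20.02 for gga-miR-9-3p. At E9 their means were higher still, at 9.374, 680.1 and 679.0 RPM. The sum of the 4 muscle markers went the other way, with medians of 22620 RPM in Pre_E, 151100 in Lat_E and 313100 in Bir_G. Most of the muscle sum was gga-miR-133a-3p. gga-miR-206 and gga-miR-499-5p had lower means at Y12 (0.2169 and 44.34 RPM) than at E9 (288.1 and 237.9). In bulk samples fewer cells of a type and less RNA per cell cannot be told apart. The part of the brain, epithelial and muscle markers in the falls was not tested. Both arms of gga-miR-1677 and of gga-miR-1720 were also brain members at D300.

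A set of 5 members rose from Lat_E to Bir_G, and 4 of them, gga-miR-1662 being the exception, were also higher than in Pre_E. gga-miR-1729, whose hairpin lies within SEPTIN5, a cytoskeletal septin gene, rose in both arms. Its 5p arm was 0.535 to 2.46 RPM in Pre_E (median 1.23), 0 to 0.865 in Lat_E (median 0.334) and 6.98 to 18.6 in Bir_G (median 10.5). Its 3p arm was 0.286 to 4.94 (median 1.84), 0 to 1.96 (median 0.845) and 4.15 to 31.6 (median 12.0). Every Bir_G sample of the 5p arm lay above every earlier one, and the 3p arm overlapped Pre_E. From Lat_E to Bir_G the changes were 3.19 ± 0.13 (limma, adjusted p = 1.11e-20) and 2.93 ± 0.22 (adjusted p = 5.37e-14). The 3 matched leukocyte markers summed to 59.2 to 278 RPM in Lat_E and 1721 to 9073 in Bir_G, and the 2 matched red cell markers to 0 to 38.99 and 143 to 752, and their part in the rise was not tested.

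gga-miR-1773-3p was a member of grown muscle. It was listed at 0 in all 6 embryos, all 6 Pre_E samples and all 15 samples of the other tissues, at 0.204 RPM in 1 of 12 Lat_E samples, and at 0.706 to 6.73 RPM in the 21 Bir_G samples (median 2.81). Against the floor, its Bir_G mean of 2.88 RPM was at least 8.9-fold higher than Pre_E. In RefSeq its hairpin lies within a long non-coding RNA. The entries next to that of the hairpin are MIR1-1 and MIR133A2, genes of muscle miRNAs. gga-miR-1651-5p, within PPP6R2, was also 0 in all Pre_E samples and was 0.801 to 2.65 RPM in Bir_G. Its Bir_G mean of 1.45 RPM was at least 4.5-fold above the floor. Its 3p arm was already 0.522 to 1.65 RPM in Pre_E and 1.02 to 3.01 in Bir_G, a difference of 0.53 ± 0.15 that was not called.

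**Figure D3:**
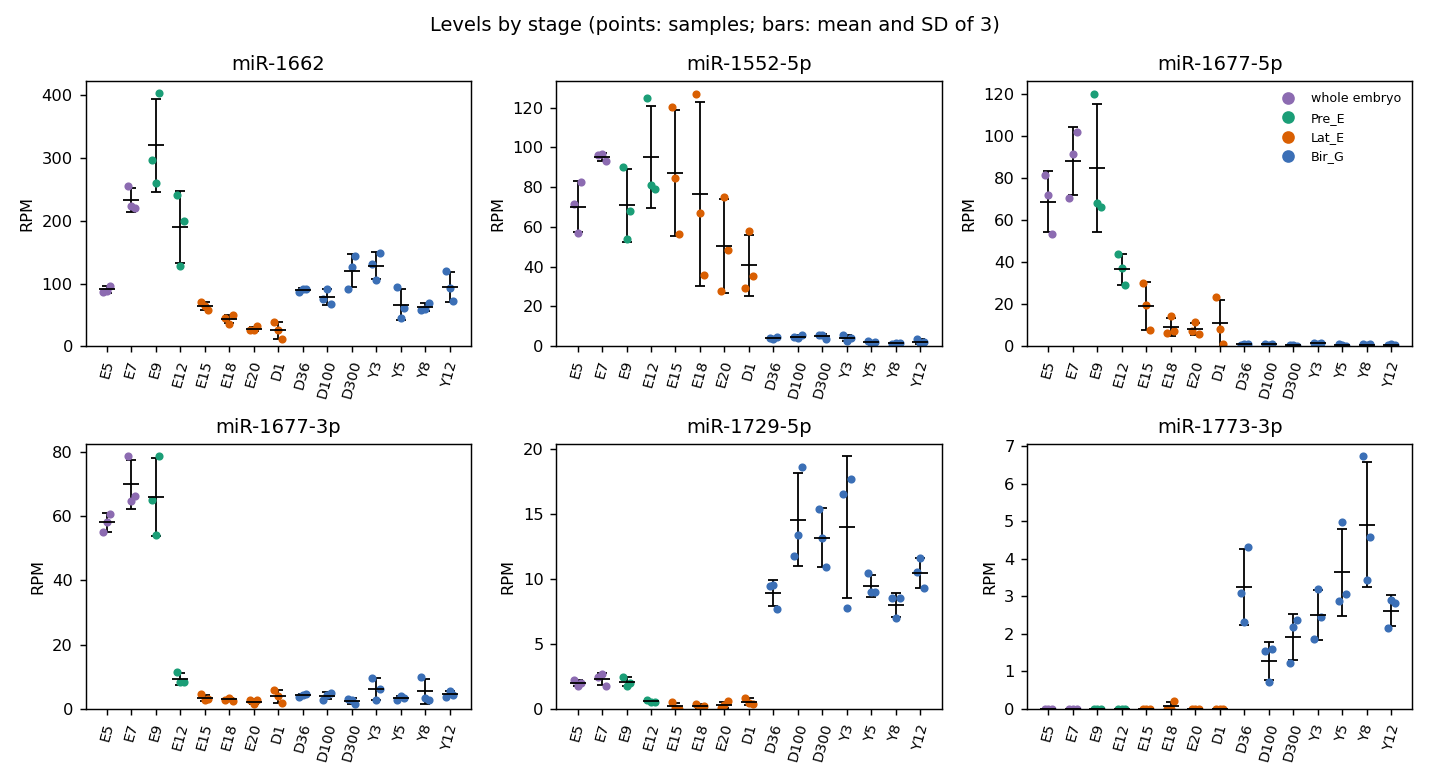
Level in RPM of 6 members by stage on linear axes from 0, with points for samples and bars for the mean and SD of 3. gga-miR-1552-5p falls between D1 and D36, gga-miR-1729-5p and gga-miR-1773-3p rise over the same step, and gga-miR-1662 dips to 25.8 RPM at D1.

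Some abundant members showed no period difference that passed the test. gga-miR-1786 ranged from 6.58 to 49.2 RPM in Pre_E, its Lat_E samples lay between 2.16 and 23.4 and its Bir_G samples between 4.15 and 30.3. gga-miR-1736-3p, within the mitochondrial tRNA synthetase gene CARS2, ran from 1.31 to 12.5 RPM in Pre_E and from 0.238 to 15.0 in Bir_G. gga-miR-1731-5p, within the transcription factor gene KLF15, stood at 9.68, 27.6 and 7.81 RPM at D100. Levels still differed between single stages, with limma F test adjusted p of 7.6e-06, 0.0122 and 7.64e-04 in that order. That test called 65.1% of all 816 miRNAs. A further member, gga-miR-1684b-3p, was called lower from Lat_E to Bir_G (−1.34, limma adjusted p = 0.0178) but was listed at 0 beside 3 RPM or more in another sample of the same group in 7 groups, such as 0, 4.68 and 14.2 RPM at D100. Over all members there were 20 such cases in 9 members. The gga-miR-1684b-3p call was lost without replicate 1 or without replicate 2, with stage means and with edgeR.

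The course over all 13 muscle stages was fitted with a polynomial of degree 2, and the limit on R-squared was that of the study. Of 179 members, 32 were called with R-squared of at least 0.6, 30 falling and 2 rising between the first and last stage, against 26.6% of all 816 miRNAs, 19.7% falling and 6.86% rising. The rising members were gga-miR-1651-5p (R-squared 0.787) and gga-miR-1773-3p (0.748). The best fits belonged to gga-miR-1552-3p (0.907), gga-miR-1698 (0.890) and gga-miR-1677-5p (0.890). gga-miR-1662 was not called, at an R-squared of 0.302. With each library centred on its median miRNA there were 10 calls, 7 rising and 3 falling. Over all miRNAs there were then 162 calls, 93 rising and 69 falling.

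A change in the ratio of arms within a hairpin does not depend on the scaling of the library. Of 46 hairpins with both arms listed, 34 had an arm at a group mean of 1 RPM or more. In 13 the 3p arm was the higher one in every such group and in 13 the 5p arm, and 8 differed between groups (those of gga-miR-1551, gga-miR-1591, gga-miR-1651, gga-miR-1655, gga-miR-1663, gga-miR-1677, gga-miR-1729 and gga-miR-1788). For gga-miR-1677 the mean log2 ratio of 3p to 5p was −1.15 in Pre_E, −1.63 in Lat_E and 2.37 in Bir_G. The lowest Bir_G ratio was 1.30 and the highest Lat_E ratio 0.737, so that Bir_G lay apart from both earlier periods. The difference in mean log2 ratio was 3.999 between Bir_G and Lat_E, 3.53 between Bir_G and Pre_E and −0.47 between Lat_E and Pre_E. It was −1.23 for gga-miR-1663 from Pre_E to Lat_E and −0.09 for gga-miR-1729 from Pre_E to Bir_G, with overlap in both, and these hairpins had no other period pair with both arms above 0 in every sample. Since the hairpins were picked for a change of the higher arm, these values are a description without a test. In the 14 tissue samples at D300 with both arms above 0 the ratios ran from 2.32 to 4.29. The lowest, 2.32 and 2.585, were liver samples 2 and 3, where the 5p arm lay under the floor of 3 reads. In Bir_G the 5p arm came down to about that floor.

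**Figure D4:**
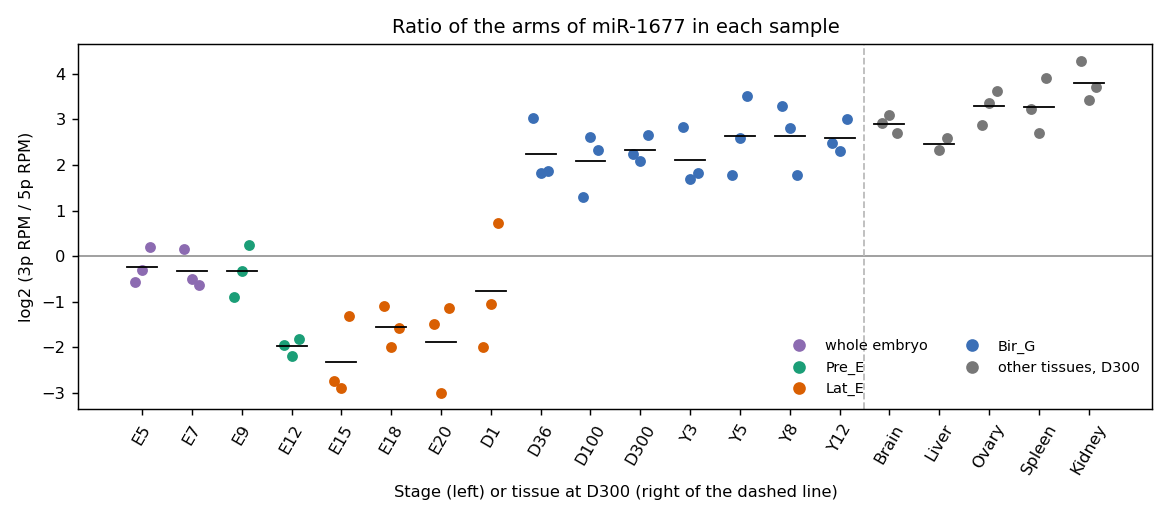
Log2 ratio of the 3p to the 5p arm of gga-miR-1677 in each sample with both arms listed, by stage and tissue, with lines for means. The ratio lies mostly below 0 up to D1 and at 1.30 or more from D36 on and in the tissues. In the liver samples shown, the 5p arm lies under the floor of 3 reads.

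From E5 to E7, 2 of 195 members were called, 1 higher and 1 lower, against 6.9% of all 768 miRNAs with 5.21% higher and 1.69% lower. gga-miR-1662 was 87.1, 88.3 and 96.7 RPM at E5 and 255, 224 and 220 at E7, without overlap, a rise of 1.35 ± 0.12 (limma, adjusted p = 7.7e-04). The median miRNA with a mean of at least 10 RPM also rose between these stages, by 0.416 on the log2 scale. The call of gga-miR-1662 was kept on centring and on rescaling. gga-miR-1680-3p was 2.65, 2.82 and 1.72 RPM at E5 and 0.957, 0 and 0.212 at E7, a change of −1.33 ± 0.32 (adjusted p = 0.0368) that lost its call without each replicate in turn. Its other arm, gga-miR-1680-5p, was 37.1, 47.0 and 28.8 RPM at E5 and 13.3, 0 and 12.3 at E7, without overlap, and was not called (−2.72 ± 0.98, adjusted p = 0.141). gga-miR-1746, in a long non-coding RNA, was 14.0, 12.5 and 10.7 RPM at E5 and 5.40, 7.33 and 6.35 at E7, under the 2-fold limit. It was 0 in all 39 muscle samples.

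Brain had more members called higher than any of the other 4 tissues, as it had more of all miRNAs. Each tissue at D300 was compared with the mean of the other 4, muscle not included. In brain 23 of 135 members were called, 20 higher and 3 lower, against 30.1% of 668 miRNAs with 21.3% higher and 8.83% lower. The members called higher were 14.8% of those tested, below the 21.3% of all, and 19 calls, or 14.1%, were without overlap, against 19.2% of all. These shares include members too low to be called. Of members with a mean of 1 RPM in the tissue or in the others, brain called 57.5%, against 57.0% of other known miRNAs. In liver these shares were 43.2% against 47.2%, in ovary 12.5% against 30.4%, in spleen 51.4% against 41.9% and in kidney 39.4% against 62.6%. gga-miR-1720-3p was 185, 258 and 323 RPM in brain, 4.04, 1.02 and 1.18 in ovary, 0, 0.235 and 0 in spleen, and 0 in liver, kidney and muscle at D300. Against the floor, the brain mean of 255.3 RPM was at least 913.5-fold higher than liver. On the log2 scale the difference was 7.57 ± 0.25 (limma, adjusted p = 5.01e-11), and its 5p arm, at 33.0, 36.1 and 25.5 RPM, differed by 4.89 ± 0.16. The gene next to its hairpin in RefSeq is MIR7-2.

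gga-miR-1805-3p lies within GABRG3, a subunit gene of the GABA-A receptor, the main inhibitory receptor of the brain. It was 295, 387 and 307 RPM in brain and 74.2, 68.0 and 48.1 in ovary, against 14.9, 1.81 and 1.86 in liver and under 1 in every spleen and kidney sample. The brain difference was 5.91 ± 0.40 (limma, adjusted p = 2.96e-08) and that of ovary 2.94 ± 0.40 (adjusted p = 9.7e-05). gga-miR-1677-3p was also highest in brain and next in ovary, with 67.6, 104 and 95.3 RPM in brain, 37.3, 25.5 and 20.6 in ovary, then 21.9, 11.1 and 16.6 in spleen, 14.1, 14.4 and 11.8 in kidney and 0.995, 0.454 and 0.559 in liver, so that ovary and spleen overlapped. Lower brain members were gga-miR-1703-5p within TRIM9 (18.9, 24.9 and 8.27 RPM), gga-miR-1803 (9.38, 14.9 and 16.4) and gga-miR-1759-5p within PHACTR1 (14.53, 13.9 and 9.57). The 4 brain markers summed to 221800 to 296400 RPM in brain and to at most 9247 in the other tissues.

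Of 150 members listed, 10 were above 0 in all 3 brain samples and at 0 in the other 12 tissue samples, as were 11 of 420 other known miRNAs. They were gga-miR-1550-3p, gga-miR-1555-3p, gga-miR-1578, gga-miR-1580, gga-miR-1601, gga-miR-1679, gga-miR-1690-5p, gga-miR-1695, gga-miR-1730-3p and gga-miR-1775-3p. The row of gga-miR-1775-3p held the same values as gga-miR-135a-1-3p in brain, at most 1.23 RPM, so that the 2 may share reads. gga-miR-1690-5p was the highest of them, at 10.8, 5.90 and 2.69 RPM. In brain, gga-miR-1555-3p, gga-miR-1578, gga-miR-1601 and gga-miR-1730-3p lay between 0.153 and 0.384 RPM, about the floor of 3 reads. For these a 0 in the other tissues says little. gga-miR-1580 ran from 0.153 to 1.31 RPM, and the remaining members were at 0.465 RPM or more in each brain sample.

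In liver, 16 members were called, 9 higher and 7 lower, against 22.5% of all with 10.9% higher and 11.5% lower. Of those tested, 5, or 3.7%, were called without overlap, against 6.89%. gga-miR-1662 was 3285, 5036 and 6022 RPM in liver, 587, 535 and 512 in brain, 173, 208 and 142 in kidney, 112, 162 and 99.6 in ovary, 101, 54.5 and 61.0 in spleen and 91.6, 126 and 144 in muscle at D300. Liver stood apart from every other sample, by 4.78 ± 0.22 (limma, adjusted p = 4.81e-09), and there this member held 82.6% to 91.8% of the RPM of all members. gga-miR-1699, within the transcription factor gene ZFHX3, was 18.0, 15.3 and 9.59 RPM in liver (3.82 ± 0.17, limma adjusted p = 4.33e-09). Its liver mean of 14.31 RPM was at least 55.0-fold above the floor in spleen. gga-miR-1784-5p, within PLD5, was 8.32, 11.5 and 4.47 RPM (2.79 ± 0.19, adjusted p = 9.69e-08). Among the lower calls was gga-miR-1677-3p, at −4.08 ± 0.22 (adjusted p = 1.53e-08).

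In spleen, 19 members were called, 6 higher and 13 lower, against 20.2% of all with 8.53% higher and 11.7% lower, and 3, or 2.22% of those tested, did not overlap the other tissues, against 6.14%. gga-miR-1769-5p was 9.71, 15.8 and 14.8 RPM in spleen and 1.54 to 3.80 in the other 4 tissues (1.92 ± 0.21, limma adjusted p = 1.25e-05), and gga-miR-1769-3p 4.86, 9.86 and 8.92 (1.99 ± 0.21, adjusted p = 9.27e-06). gga-miR-1559-5p was highest in spleen, at 393, 557 and 527 RPM, and next in liver, at 466, 323 and 392, so that these overlapped, while brain held 124, 81.5 and 83.5. gga-miR-1729-3p was 25.9, 28.8 and 49.8 RPM in spleen and 38.5, 31.8 and 22.5 in liver. gga-miR-1781-3p, within IQCE, was 9.45, 11.3 and 12.1 RPM in spleen and 11.6, 12.7 and 11.3 in liver, against 0.999, 0.842 and 1.21 in brain, and was called higher in spleen (1.42 ± 0.14) and liver (1.56 ± 0.14) and lower in brain (−1.78 ± 0.14). The leukocyte markers summed to 77420 to 131100 RPM in spleen and 10440 to 21970 in liver, and their part in these levels was not tested.

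Ovary and kidney had few members of their own. In ovary 4 members were called, 2 higher and 2 lower, against 12.9% of all with 7.93% higher and 4.94% lower. All 4 overlapped the other tissues (background of calls without overlap 4.64%), the higher ones being gga-miR-1805-3p and gga-miR-1677-3p (1.02 ± 0.22, limma adjusted p = 0.0034, lost on centring, on rescaling and without replicate 1). In kidney 13 were called, all lower, against 28.1% of all miRNAs with 3.44% higher and 24.7% lower, and 2, or 1.48% of those tested, did not overlap, against 10.3%. There the median miRNA with a mean of at least 10 RPM was lower by −1.31, and centring each library on its median miRNA kept 3 of the 13, gga-miR-1720-3p, gga-miR-1729-3p and gga-miR-1805-3p, and turned the split to 7 higher and 3 lower. Over all miRNAs, centring gave 55 higher and 51 lower in kidney. The lower calls of gga-miR-1720 and gga-miR-1805 in liver, spleen and kidney were made against a mean that includes brain.

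**Figure D5:**
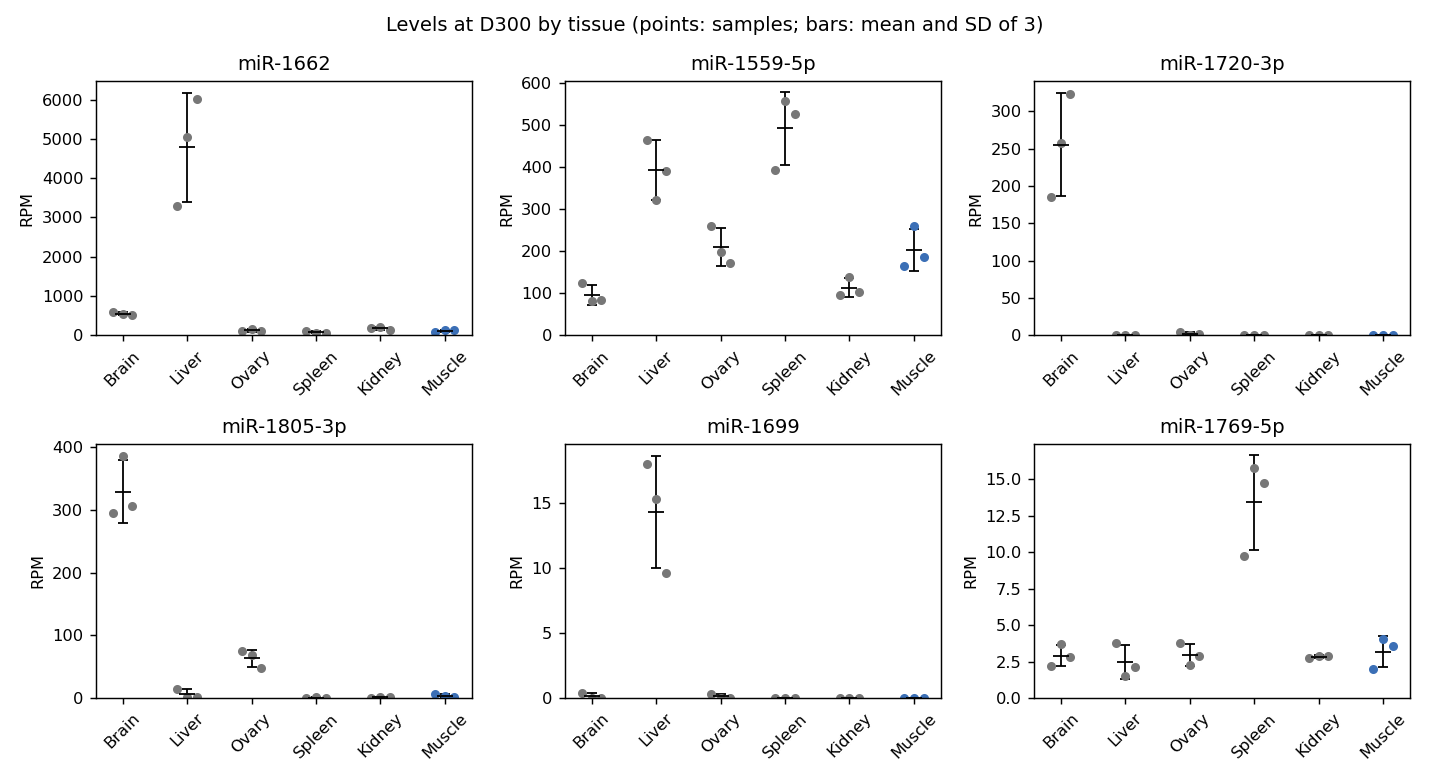
Level in RPM of 6 members in the tissues and muscle at D300 on linear axes from 0, with points for samples and bars for the mean and SD of 3. gga-miR-1662 stands highest in liver at 3285 to 6022 RPM, gga-miR-1720-3p and gga-miR-1805-3p in brain, and gga-miR-1559-5p spans spleen and liver.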

How the data were processed

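Small RNA libraries of 45 stage samples and 15 tissue samples were analysed. The authors trimmed reads with Cutadapt, kept those of 18 to 30 nucleotides, removed repeats, aligned with Bowtie, matched reads to miRBase and found further hairpins with miRDeep2. The versions of Bowtie and cutadapt are not given in the sources used here. The deposited values are named TPM by the authors but behave as RPM, reads scaled to the library size, since all values of 56 libraries were whole multiples of 1 read within 0.05. For 4 libraries (E7 replicate 2, E9 replicate 3, D100 replicate 3, Y8 replicate 2) reads were not recovered, and these were left out of the count test. Their values were also whole multiples of their lowest value, but that value was not taken as 1 read. 1 column without a name was not used. Intervals on counting error were not needed, and the floor of 3 reads covers counting error only. Nothing says whether replicates are separate birds, so that p-values rest on the spread between these samples only. In the period tests all samples of a period were treated as its replicates, so that this spread also holds differences between stages.

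Differences were tested with limma 3.58.1 in R 4.3.3 (trend) on log2(RPM + 1) over all miRNAs above 0 in at least 1 sample compared, with Benjamini-Hochberg adjustment over all of them. Fold changes on this scale understate the change of low miRNAs. edgeR 4.0.16 (quasi-likelihood, TMM) on recovered reads was an alternative, beside a pseudocount of 0.1, a minimum mean of 1 RPM, centring on the median miRNA, an unadjusted p, stage means, a replicate block and leaving out each replicate. Rescaling before the log, leaving out stage E9, 1 kidney library or 2 D1 libraries were chosen after seeing the data. Scripts were tested on simulated data. Values were summarised in Python 3.11.15 (pandas 2.3.3, NumPy 2.4.6) and drawn with Matplotlib 3.10.9.

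The members and lists were chosen with earlier results of these data known. Named were the 12 members highest in muscle, the 3 highest in embryos, the 3 largest called rises and falls per comparison of periods, the 3 largest called rises per tissue and the 2 largest called rises and falls from E5 to E7, with a mean of at least 1 RPM, and their other arms. Every other member named was chosen after its values were seen.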

Additional observations from a re-analysis of the deposited data

Results flagged for a closer look

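Of 19 groups of 6 Pre_E samples tested, 5 had a sample far from the others, the gap to the nearest sample being a larger share of the range than Dixon's 95% limit. The limit flags about 1 in 20 groups when all samples are independent draws from 1 population. That rate does not apply here, since every group was a member over the same 6 libraries, which mix E9 and E12. The 2 arms of gga-miR-1720 also come from 1 hairpin. gga-miR-1720-3p reached 13.02 RPM and gga-miR-1720-5p 4.238 RPM in E9 replicate 3, each the highest of the 6 samples. gga-miR-1784-5p reached 0.6055 RPM in the same library, which is 1 of the 4 whose reads were not recovered. gga-miR-1699 was 0.5221 RPM in E9 replicate 2 and 0 in the other 5 samples. gga-miR-1731-5p was 1.391 RPM in E12 replicate 2, the lowest of the 6.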

How the results depend on the processing

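Counts of called members depended on the pseudocount. With 0.1 they were 51 from Pre_E to Lat_E, 43 from Lat_E to Bir_G, 79 from Pre_E to Bir_G and 4 from E5 to E7. In the tissues they were 50 in brain, 28 in liver, 13 in ovary, 31 in spleen and 25 in kidney. Over all miRNAs, in the same order, 0.1 gave 245, 332, 437, 60, 308, 212, 133, 178 and 243 calls. The main setting gave 149, 203, 284, 53, 201, 150, 86, 135 and 188. Centring on the median miRNA gave 8 from Pre_E to Lat_E (5 higher, 3 lower), 4 from E5 to E7, 10 in ovary, 10 in kidney (7 higher, 3 lower) and 10 over the stage course (7 rising, 3 falling). Of all miRNAs it called 124 (96 higher, 28 lower), 49, 112, 106 (55 higher, 51 lower) and 162 (93 rising, 69 falling). Rescaling to the median miRNA, chosen after seeing the data, gave 5 from Pre_E to Lat_E (1 higher, 4 lower) and 5 from E5 to E7, 11 in kidney (4 higher, 7 lower) and 23 over the stage course (5 rising, 18 falling). Here the calls over all miRNAs were 80 (42 higher, 38 lower), 46, 113 (43 higher, 70 lower) and 199 (89 rising, 110 falling). edgeR on recovered reads called 93 from Lat_E to Bir_G, 104 from Pre_E to Bir_G, 5 from E5 to E7, 45 in brain, 10 in ovary and 10 in kidney (6 higher, 4 lower). It called 485, 511, 57, 294, 117 and 107 (56 higher, 51 lower) of all miRNAs. Stage means gave 3 from Pre_E to Lat_E and an unadjusted p gave 4 from E5 to E7. A mean of at least 1 RPM gave 14 from Pre_E to Bir_G and 7 over the stage course, and the F test over stages called 99. In the same order, 12, 67, 232, 151 and 531 of all miRNAs were called. The cause of these changes was not tested.

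Leaving out each replicate gave 14 to 18 calls from Pre_E to Lat_E, 11 to 16 from Lat_E to Bir_G, 26 to 30 from Pre_E to Bir_G, 1 to 4 from E5 to E7, 22 to 23 in brain, 14 to 16 in liver, 4 to 5 in ovary, 17 to 20 in spleen, 9 to 14 in kidney and 30 to 44 over the stage course. Peaks at E5 or E7 fell from 49 to 10, at muscle E9 or E12 from 38 to 8 and in brain from 23 to 11 when a mean of 10 RPM was required. The median number of members detected over all muscle samples, 48, was 22 at 1 RPM or more and 5 at 10 RPM or more. At 3 reads or more, 1 RPM or more and 10 RPM or more, the medians were 110, 63 and 13 in embryos, 81, 40.5 and 8.5 in Pre_E, 37, 22 and 4 in Bir_G and 68, 35 and 15 in brain, and in Lat_E 21.5 at 1 RPM or more and 5.5 at 10 RPM or more. The order embryo, Pre_E, Lat_E held at each limit, whereas Lat_E and Bir_G changed order at 1 RPM.

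With a replicate block, 1 member was called from E5 to E7 and gga-miR-1680-3p was lost, liver gave 17 calls, and the other comparisons kept their counts. Same-numbered samples had a mean correlation of 0.009 in muscle, 0.032 in tissues and −0.358 in embryos, so that the numbers were not taken as pairs. Of 900 alternative values of the named members, 810 kept their call, 90 lost it and 0 changed direction. The 810 include 79 from the unadjusted p, a setting in which no call can be lost. Calls lost and kept were 25 and 54 with edgeR, 18 and 61 on centring, 14 and 65 on rescaling, and 8 and 19 with stage means. Many named members were picked for large called changes in these data, so the total is no measure of robustness. Members under about 0.3 RPM rest on fewer than 3 reads a library.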
